A study of Homo sapiens with 19 samples.

Results

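Peaks of the histone variant H3.3 that were found in U2OS cells after EP400 siRNA and not after mock siRNA numbered 9093. They are the peaks of the EP400 siRNA list with a width of 300 bp or more that shared no base with any peak of the mock list. The EP400 siRNA list held 41439 H3.3 peaks, 10812 of them of 300 bp or more, and the 11 peak lists of the study held 431797 peaks in all. The 9093, called knockdown-only peaks here, were set beside 1719 H3.3 peaks of the same library and width that did overlap a mock peak (shared peaks), and beside 24691 mock H3.3 peaks of 300 bp or more with no overlap after EP400 siRNA (mock-only peaks). The classes were chosen by peak position and width in both H3.3 lists, so their numbers, widths and distances from each other are a description.

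U2OS is an established human osteosarcoma line. The cells received an siRNA against EP400 or, as the mock, an siRNA against GFP, and were harvested 72 hr after transfection. Chromatin immunoprecipitation with sequencing (ChIP-seq) mapped H3.3, the variant H2AZ, RNA polymerase II (Pol II) and the Mediator subunit MED26 in both conditions. H3K18ac and H3K4me1, both histone marks, were mapped after mock siRNA alone. EP400 itself was mapped in 3 immunoprecipitations that came as 1 list, and their labels name no siRNA and no time after transfection. RNA-seq covered both conditions. Each condition had 1 library per antibody and 1 RNA library, which gives neither a replicate check nor a test of any difference between conditions. All libraries came from cultures in bulk, where a signal in fewer cells and a lower signal per cell cannot be told apart.

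H3.3 is the form of histone H3 that is placed into chromatin outside DNA replication, by chaperones such as HIRA at genes and regulatory elements and DAXX with ATRX at heterochromatin. Transcribed gene bodies, active promoters and enhancers are known places of H3.3 turnover. EP400 is an ATPase of the SNF2 family and the motor subunit of TIP60-EP400, a complex that remodels nucleosomes that carry H2A.Z and H3.3.

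The promoters of 4 genes are shown as examples of genes with and without a knockdown-only peak over the start. Such peaks covered 4 of 12699 starts in all, so these examples show no type of promoter. LIPH, which encodes a membrane phospholipase, and EIF4E, which encodes the translation factor that binds the mRNA cap, had a knockdown-only peak over the start of their locus. SMCHD1, a repressor of the inactive X chromosome, and ANKRD17, an ankyrin repeat protein, were among the genes with the most knockdown-only peaks in their body and had none within 500 bp of their start. Each run holds 250 bases before and 50 after the start, 5′ to 3′ on the gene's own strand, from RefSeq (GRCh38.p14), with every CpG in capitals. The runs were matched by symbol, and peaks and loci are on hg19. Whether a run lies under the peak was not checked.
LIPH: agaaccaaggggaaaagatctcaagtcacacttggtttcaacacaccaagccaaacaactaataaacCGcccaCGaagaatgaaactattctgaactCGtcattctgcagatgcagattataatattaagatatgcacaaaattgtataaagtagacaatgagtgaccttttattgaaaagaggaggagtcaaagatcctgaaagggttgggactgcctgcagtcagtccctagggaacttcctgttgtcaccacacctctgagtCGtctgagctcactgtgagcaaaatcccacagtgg
EIF4E: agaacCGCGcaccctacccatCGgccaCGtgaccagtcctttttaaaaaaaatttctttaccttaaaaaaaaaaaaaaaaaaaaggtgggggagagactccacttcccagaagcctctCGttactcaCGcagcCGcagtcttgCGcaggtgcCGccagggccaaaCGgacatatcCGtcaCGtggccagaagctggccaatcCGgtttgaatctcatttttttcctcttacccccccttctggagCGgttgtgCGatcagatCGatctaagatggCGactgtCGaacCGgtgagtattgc
SMCHD1: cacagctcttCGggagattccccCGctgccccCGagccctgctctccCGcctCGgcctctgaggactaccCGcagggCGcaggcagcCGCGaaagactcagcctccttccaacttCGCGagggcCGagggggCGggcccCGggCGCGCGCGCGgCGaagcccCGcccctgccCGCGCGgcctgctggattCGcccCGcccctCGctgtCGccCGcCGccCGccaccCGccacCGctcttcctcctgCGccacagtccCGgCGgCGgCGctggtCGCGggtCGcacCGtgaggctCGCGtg
ANKRD17: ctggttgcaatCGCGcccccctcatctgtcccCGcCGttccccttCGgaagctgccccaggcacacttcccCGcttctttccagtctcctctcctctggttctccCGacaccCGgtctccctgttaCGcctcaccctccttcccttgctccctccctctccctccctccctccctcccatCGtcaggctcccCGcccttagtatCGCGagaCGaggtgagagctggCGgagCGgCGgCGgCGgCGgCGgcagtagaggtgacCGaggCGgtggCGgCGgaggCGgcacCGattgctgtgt
LIPH held 4 CpG and 43% G and C, EIF4E 19 CpG and 50.7%, SMCHD1 44 CpG and 77.3%, and ANKRD17 27 CpG and 68% in these 300 bases. Of the genes measured here with 3 or more knockdown-only peaks in the locus, 612 of 753 with a symbol matched a promoter, with a median of 65% G and C and 27 CpG. Over all genes measured, 9077 of 11404 matched, with a median of 65.7% and 27 CpG, so the promoters of the genes that held these peaks were close to the rest in composition.

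RNA of EP400, which the siRNA targets, was at 2.28 FPKM after EP400 siRNA (limits 0.162 to 4.41) and at 10.04 FPKM after mock siRNA (0.165 to 19.9). Limits of a gene are here the authors' confidence limits per transcript, summed. FPKM are fragments scaled to transcript length and library size, and the limits overlapped. The log2 ratio of EP400 was -1.75, on a scale of log2(FPKM + 1) used throughout, and -1.19 once the FPKM were rescaled to equal sums. The EP400 locus on chromosome 12 (132434465 to 132565011) held no knockdown-only peak. Of 8 osteoblast and mesenchymal markers 7 had a mean of 1 FPKM or more, with COL1A2 under 1, and their FPKM summed to 1464 after EP400 siRNA and 1260 after mock siRNA. VIM held 1132 FPKM of the sum after EP400 siRNA and 618 FPKM after mock siRNA, and the other 7 summed to 332 and 642 FPKM. Epithelial markers had 2 of 6 genes at that level (sums 12.8 and 70.6 FPKM), and endothelial markers 0 of 4. The peak lists carry no height and no depth, and the mock H3.3 list held 79838 peaks, so the part of depth or enrichment in a peak found in 1 list was not tested.

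The knockdown-only peaks made up 84.1% of the H3.3 peaks of 300 bp or more after EP400 siRNA and 91.3% of the narrower ones. Their median width was 400 bp, the widest spanned 5700 bp, and 3861 were 300 bp wide. Together they covered 4.21 Mb. The nearest mock H3.3 peak lay at a median of 5.20 kb. Within 1 kb of one lay 2225 knockdown-only peaks (24.5%), and 702 (7.72%) were over 100 kb from any. Peaks at the width limit and those just under it lay in like places: of the 3861 at 300 bp 12.95% were at gene ends, and of the 7763 at 200 bp 12.8% were.

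Most knockdown-only peaks lay inside genes and away from their ends. A locus is a cluster of overlapping transcripts in the RNA table, without strand, and a gene end is the stretch within 2 kb of a locus boundary, inside or outside. Inside a locus and away from its ends lay 6263 knockdown-only peaks (68.9%, 95% Wilson interval 67.9 to 69.8%), compared with 40.3% (38.02 to 42.7%) of shared and 42.6% (41.9 to 43.2%) of mock-only peaks. At gene ends lay 1271 (13.98%, 13.3 to 14.7%), compared with 37.6% (35.4 to 39.95%) of shared and 32.6% (32.0 to 33.2%) of mock-only peaks. Outside any locus lay 17.1%, against 22.0% of shared and 24.9% of mock-only peaks. The intervals cover counting error over the peaks of single libraries. On each of the 23 chromosomes with knockdown-only peaks the gene-end share was lower for them than for shared peaks and for mock-only peaks.

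**Figure D1:**
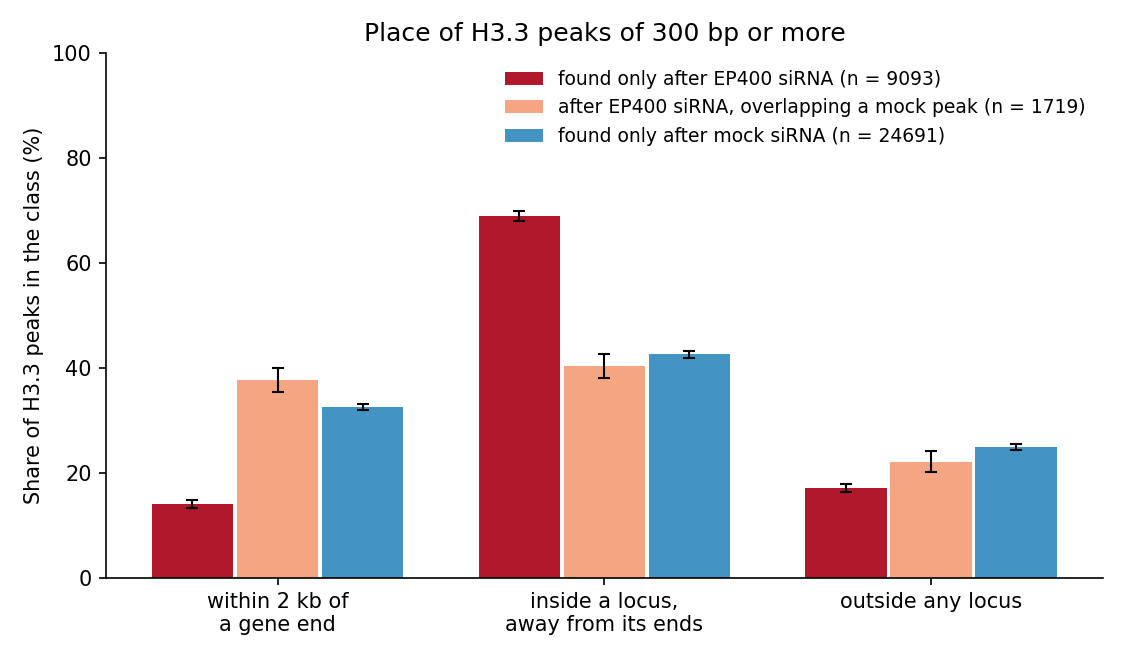
Share of H3.3 peaks of 300 bp or more (y axis, %) within 2 kb of a gene end, inside a locus away from its ends, or outside any locus, for knockdown-only, shared and mock-only peaks, with 95% Wilson intervals as error bars. The knockdown-only bar stands at 68.9% inside loci and 13.98% at gene ends, and those of the shared and mock-only peaks are close to each other.

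Strand from RefSeq allowed the position along a gene to be read for 6651 loci of 1 gene and 20 kb or more. The 3795 knockdown-only peaks inside them were spread almost evenly from start to end, with 9.75% in the first of 10 equal parts of the gene, 9.09% in the ninth and 11.4% in the last. The 363 shared peaks there had 15.2% in the first part, and the 5709 mock-only peaks had 23.2%. EP400 peaks had 33.0% and mock Pol II peaks 54.6% there. Within 2 kb of a start lay 258 knockdown-only peaks and within 2 kb of an end 359, a ratio of 0.719, compared with 1.16 for shared and 2.09 for mock-only peaks.

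**Figure D2:**
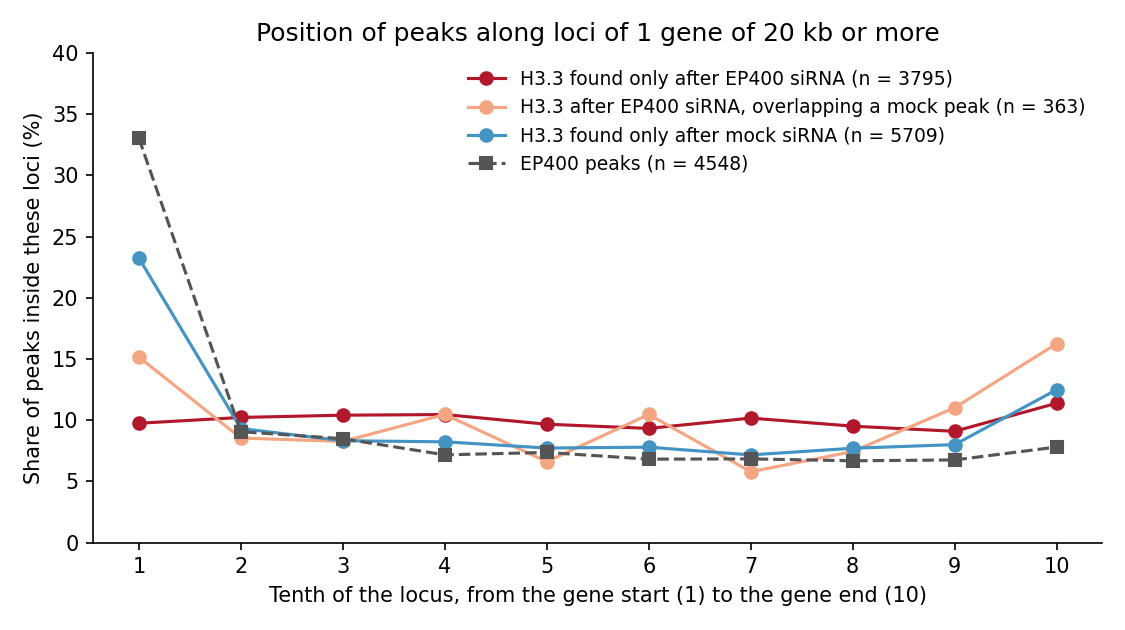
Share of the peaks inside loci of 1 gene of 20 kb or more (y axis, %) in 10 equal parts of the locus from start to end (x axis), for knockdown-only, shared and mock-only H3.3 peaks and for EP400 peaks. The knockdown-only line stays between 9.09% and 11.4%, and the mock-only and EP400 lines are at 23.2% and 33.0% in the first part.

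Of 12699 starts with a known strand, knockdown-only peaks covered 4, shared peaks 4 and mock-only peaks 141, which is 0.440, 2.33 and 5.71 starts per 1000 peaks. The 4 were the locus starts of LIPH, EIF4E and the noncoding genes LINC00641 and LOC101928105. Promoters matched to these genes by symbol had a median of 4 CpG and 41.8% G and C. Over all 27284 promoters the medians were 13 CpG and 58.3%, and 4 promoters are too few to compare. The peak over EIF4E (chromosome 4, 99851501 to 99851900) overlapped mock peaks of H2AZ, H3K18ac and H3K4me1. EIF4E RNA stood at 6.001 FPKM after EP400 siRNA (limits 0.271 to 13.2) and 3.16 FPKM after mock siRNA (0.0637 to 7.14), a log2 ratio of 0.75 with overlapping limits. The peak over LIPH (chromosome 3, 185270101 to 185270600) overlapped H2AZ in both conditions, and LIPH RNA was under 1 FPKM in both libraries (0.675 and 0.349 FPKM after EP400 and mock siRNA).

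The chromosomes held knockdown-only peaks unevenly. Chromosome 2 held 760, chromosome 1 held 707 and chromosome 3 held 698. Per locus of the RNA table, chromosome 18 (0.939) and chromosome 14 (0.906) had the most, and chromosome 19, the richest in genes for its length, had the fewest of any that held one (0.0477 per locus, 70 peaks). None lay on chromosome Y, where the other classes also had none. The balance with mock-only peaks differed between chromosomes: chromosome 19 held 70 knockdown-only and 2173 mock-only peaks, a ratio of 0.0322. Chromosome 4 held 626 knockdown-only and 301 mock-only peaks, a ratio of 2.08, followed by chromosome 18 (290 and 220, 1.32) and chromosome 14 (623 and 609, 1.02). On the other 20 chromosomes mock-only peaks were more numerous.

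**Figure D3:**
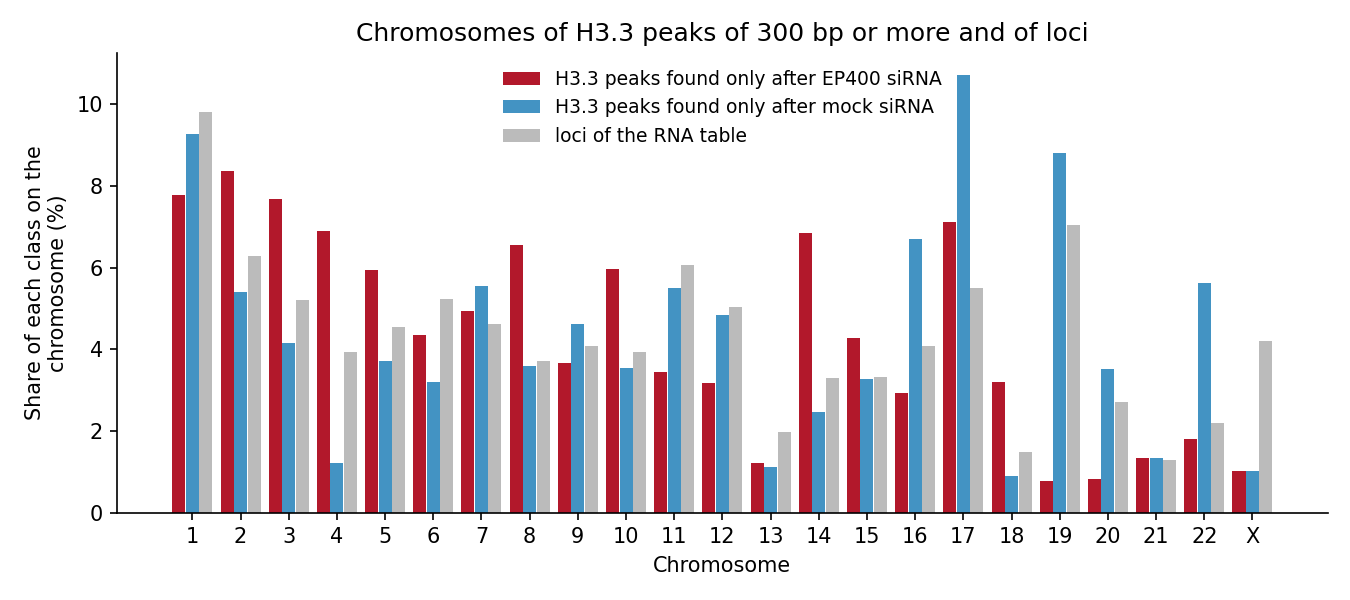
Share of the knockdown-only H3.3 peaks, of the mock-only H3.3 peaks and of the loci of the RNA table (y axis, %) on each chromosome (x axis). Chromosomes 4, 14 and 18 hold 6.88%, 6.85% and 3.19% of the knockdown-only peaks against 1.22%, 2.47% and 0.891% of the mock-only peaks, and chromosome 19 holds 0.770% against 8.80%.

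Gene density was lower around knockdown-only peaks than around the other H3.3 peaks. Within 500 kb of a knockdown-only peak lay a median of 8 loci (quartiles 5 and 12), compared with 14 (8 and 23) for shared and 15 (9 and 25) for mock-only peaks. Surroundings of 3 loci or fewer held 11.9% of knockdown-only peaks, against 3.49% of shared and 3.48% of mock-only peaks, and surroundings of 20 or more held 7.28%, against 31.3% and 37.7%. The median was lower for knockdown-only than for shared peaks on 21 of 23 chromosomes and equal on 2. Against mock-only peaks it was lower on 20, equal on 2 and higher on chromosome 18, with 7 and 6 loci. The difference in medians to shared peaks, -6 loci, was -3 with shared peaks weighted to the chromosomes of the knockdown-only peaks, and -3 where a mock peak within 1 kb counted as found.

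Part of the knockdown-only peaks came in runs. Neighbouring knockdown-only peaks were a median of 22.8 kb apart, and 3536 of 9070 gaps (39.0%) were 10 kb or less. For the fewer shared peaks the median gap was 178 kb and for the more numerous mock-only peaks 7.10 kb. Gaps of 10 kb or less made up 21.5% of those of shared and 55.6% of those of mock-only peaks. Runs were counted for knockdown-only peaks alone. Joined over gaps of 10 kb or less, the knockdown-only peaks formed 5557 runs, of which 4186 were a single peak. Runs of 5 or more numbered 235, with 2143 of the peaks (23.6%). The longest run, of 58 peaks over 189 kb, lay in PTK2 on chromosome 8, which encodes focal adhesion kinase. The next had 52 peaks in DLG1 (chromosome 3, 196857501 to 197005900), 43 peaks in PALS1 and its neighbours ATP6V1D and EIF2S1 (chromosome 14, 67708801 to 67832500) and 31 peaks in ERBIN (chromosome 5, 65268401 to 65366700). Over 1-Mb windows, the fullest was chromosome 18 from 2000001 to 3000000, with 89 knockdown-only, 1 shared and 9 mock-only peaks. The 50 fullest of the 1570 windows with a knockdown-only peak held 22.1% of them.

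Of 20821 loci 2542 (12.2%) held a knockdown-only peak, 699 held 3 or more and 118 held 10 or more. Loci with a knockdown-only peak had a median length of 72.4 kb, against 18.4 kb for those without. PTK2 held 72 knockdown-only, 2 shared and 13 mock-only peaks, with RNA at 12.3 FPKM after EP400 siRNA and 10.6 FPKM after mock siRNA. DLG1, which encodes a scaffold of cell polarity, held 66 knockdown-only and 1 mock-only peak (5.28 and 4.72 FPKM). DST, which encodes the cytoskeletal linker dystonin, held 53 knockdown-only and 5 mock-only peaks (6.14 and 2.90 FPKM). SMCHD1 held 52 and 2 (6.16 and 3.55 FPKM), and ANKRD17 43 and 2 (9.23 and 9.30 FPKM). DCBLD2, which encodes a transmembrane receptor-like protein, held 41 knockdown-only and 3 mock-only peaks (50.05 and 23.7 FPKM). These 6 loci were picked for their knockdown-only peaks, so the balance with mock-only peaks in them is a description. Their log2 ratio of RNA lay between -0.01 (ANKRD17) and 1.05 (DCBLD2), with overlapping limits for all 6. The ERBIN locus tied with DCBLD2 at 41 knockdown-only peaks, and its log2 ratio was lower, at -0.48. DLG1 and DST share their locus with an antisense gene, from which reads cannot be told apart here.

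The starts of the leading genes carried Pol II, MED26 and H3K18ac, as most starts of expressed genes did. Among the 12 loci of 1 gene on strand with the most knockdown-only peaks, which held 383 of them, the 500 bp on each side of the start overlapped mock Pol II, MED26 in both conditions and H3K18ac in all 12. H2AZ of mock cells lay at 11, Pol II after EP400 siRNA at 11, EP400 at 7 and mock-only H3.3 at 6. Knockdown-only H3.3, shared H3.3 and H3K4me1 lay at 0 of these 12 starts. Of the starts of 6657 single-gene loci with a mean of 1 FPKM or more, 90.9% had mock Pol II within 500 bp, 81.6% mock MED26, 73.4% H3K18ac, 24.4% EP400 and 16.6% mock-only H3.3. Knockdown-only H3.3 lay at 23 of the 6657 (0.346%), so none at 12 starts is near what all starts gave.

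The widest knockdown-only peaks lay in few genes. The widest, of 5700 bp, lay in ERBIN (chromosome 5, 65334501 to 65340200), which encodes a scaffold that binds the receptor ERBB2, as did the next of 3500 bp and both of 2800 bp. The ERBIN locus held 41 knockdown-only, 18 shared and 7 mock-only peaks, and ERBIN RNA stood at 10.9 FPKM after EP400 siRNA and 15.6 FPKM after mock siRNA (log2 ratio -0.48, and 0.22 on rescaling to equal sums). A peak of 3200 bp lay at an end of ANKRD17 (chromosome 4, 73938401 to 73941600), where it overlapped an EP400 peak, and 1 of 2700 bp lay at an end of PCF11 (chromosome 11, 82895401 to 82898100), which encodes a factor of transcript cleavage and termination. The PCF11 peak touched a mock H3.3 peak with no base between them, and 2 more peaks, in DLG1 and ERBIN, were as wide.

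Most knockdown-only peaks coincided with no other list. Of the 9093, 7462 (82.1%) overlapped none of the other 9 lists, and 1631 (17.9%, 17.2 to 18.7%) overlapped at least 1. The share with at least 1 was 54.0% (51.6 to 56.3%) for shared and 54.8% (54.2 to 55.5%) for mock-only peaks. H3K4me1, a mark of enhancers, was the most frequent, at 971 knockdown-only peaks (10.7%), against 29.96% of shared and 27.1% of mock-only peaks. H3K18ac, a mark of active enhancers and promoters, lay at 546 (6.005%), against 25.6% and 31.9%. Both marks together lay at 319 knockdown-only peaks (3.51%), against 18.9% of shared and 19.5% of mock-only peaks.

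Few knockdown-only peaks overlapped Pol II or MED26. Pol II after EP400 siRNA overlapped 10 of them (0.110%) and Pol II of mock cells 18 (0.198%). The same lists overlapped 3.78% and 13.6% of shared peaks, and 9.15% and 25.6% of mock-only peaks. MED26 overlapped 16 knockdown-only peaks after EP400 siRNA and 12 in mock cells, or 0.176% and 0.132%, against 9.95% and 9.31% of shared peaks and 8.88% and 17.0% of mock-only peaks. These shares depended on the overlap required. Within 1 kb of a knockdown-only peak lay Pol II at 4.45% after EP400 siRNA and 6.93% in mock cells, against 24.9% and 43.1% of shared and 29.3% and 48.2% of mock-only peaks. MED26 within 1 kb was at 6.09% and 7.16%, against 36.3% and 41.2% of shared and 31.7% and 38.8% of mock-only peaks. H2AZ overlapped 140 (1.54%) after EP400 siRNA and 319 (3.51%) in mock cells, with 91 in both. For shared peaks the H2AZ shares were 2.04% and 5.35%, and for mock-only peaks 3.27% and 10.99%. The intervals of the H2AZ share after EP400 siRNA overlapped between knockdown-only (1.31 to 1.81%) and shared peaks (1.47 to 2.82%). The lists differ in length, so shares are compared between H3.3 classes for the same list.

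The few knockdown-only peaks outside loci carried marks more often than those inside. Of the 1559 outside any locus 20.2% overlapped H3K4me1, 14.7% H3K18ac and 9.49% mock H2AZ. Of the 6263 inside loci and away from ends 9.32% overlapped H3K4me1, 4.44% H3K18ac and 1.77% mock H2AZ. No knockdown-only peak overlapped more than 5 lists, and 4 overlapped 5. They lay at an end of PALS1, a cell polarity gene (chromosome 14, 67708801 to 67709500; EP400, Pol II in both conditions, mock MED26 and H3K18ac), in ASAP1 on chromosome 8, which encodes an Arf GTPase-activating protein, 288 bp from the polyprenol reductase gene SRD5A3 (chromosome 4, 56211601 to 56212100) and in the locus that AIMP1 and TBCK share (chromosome 4, 107236901 to 107237200). The next were a peak of 1200 bp in the adhesion gene SDK1 (chromosome 7, 3475701 to 3476900) and 1 outside loci on chromosome 8 nearest to LINC00824, both with H2AZ in both conditions, H3K18ac and H3K4me1.

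EP400 peaks overlapped 294 knockdown-only peaks (3.23%, 2.89 to 3.62%), compared with 7.62% (6.46 to 8.97%) of shared and 3.79% (3.56 to 4.04%) of mock-only peaks. Most EP400 peaks were narrow, with a median width of 50 bp. The median distance to an EP400 peak was 14.001 kb for knockdown-only, 5.95 kb for shared and 16.3 kb for mock-only peaks. By locus they went together: in loci of 10 kb or more with a summed FPKM of 1 or more, EP400 peaks numbered 3.83 per 100 kb in 116 loci with 10 or more knockdown-only peaks. They numbered 2.14 in 520 loci with 3 to 9, 1.15 in 1315 loci with 1 or 2, and 0.736 in 6171 loci with none. H3K4me1 peaks showed the same order, with 4.42, 3.87, 3.01 and 2.31 per 100 kb. Mock Pol II peaks numbered 0.820, 1.26, 1.70 and 2.92 per 100 kb in the same groups. The loci differed in length, with medians of 129, 85.1, 65.0 and 35.9 kb, and per locus mock Pol II peaks were nearly level, at 1.77, 1.70, 1.84 and 1.99. PTK2 held 28 EP400 peaks, DST 17, SMCHD1 14, ANKRD17 10, DCBLD2 4 and DLG1 3.

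The order of EP400 was also seen at like length and RNA level. In 12 classes of locus length and mean FPKM, EP400 peaks per 100 kb were more frequent in loci with 3 or more knockdown-only peaks than in loci with none in all 12, by ratios of 3.38 to 21.5 (median 4.42). For H3K4me1 the ratios were 1.03 to 4.89 (median 1.51), also above 1 in all 12. The class with the ratio of 21.5 held 15 loci with knockdown-only peaks and 13 without. Other properties that these loci share were not tested.

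Expressed loci held more knockdown-only peaks than silent ones, without a further climb at high expression. Loci with a summed mean FPKM of 1 or more held 0.943 knockdown-only peaks per 100 kb, and those under 1 held 0.106. For mock-only peaks the rates were 2.01 and 0.311. By mock FPKM, knockdown-only peaks numbered 0.0750 per 100 kb in loci at 0 to 0.1 FPKM, 0.196 at 0.1 to 1, 0.794 at 1 to 5, 1.24 at 5 to 20, 1.02 at 20 to 100 and 0.860 over 100 FPKM. Mock-only peaks numbered 0.189, 0.420, 0.625, 1.92, 5.08 and 8.95 per 100 kb in the same classes. The knockdown-only rate was thus highest at intermediate RNA levels, and the mock-only rate in the highest class. At 1 to 5 FPKM knockdown-only peaks outnumbered mock-only peaks.

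**Figure D4:**
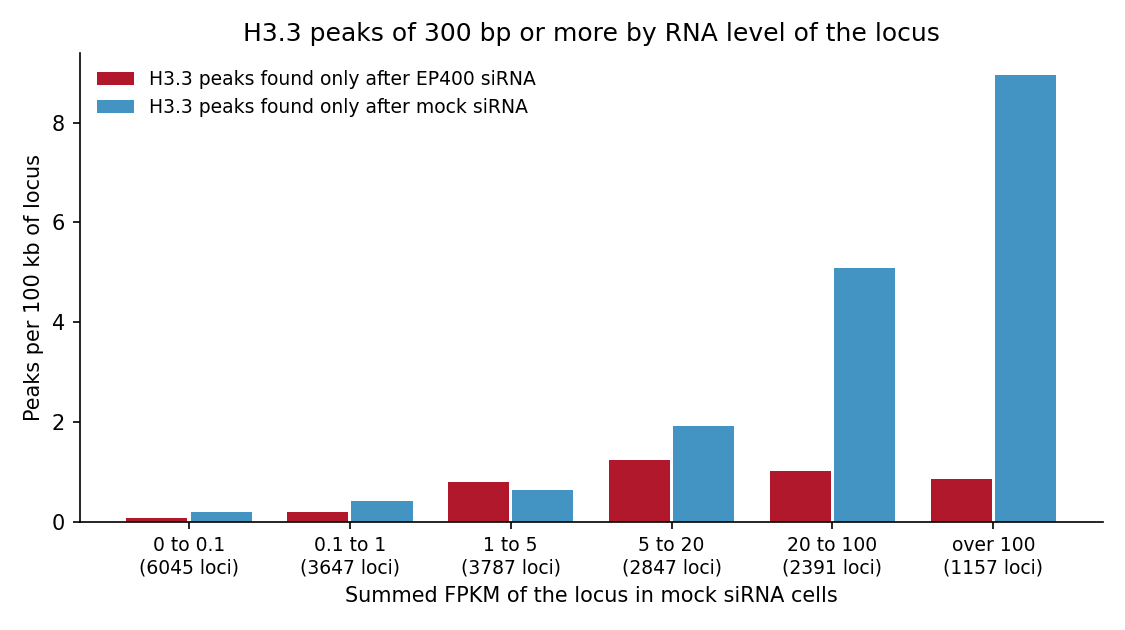
Peaks per 100 kb of locus (y axis) for knockdown-only and mock-only H3.3 peaks in classes of the summed FPKM of the locus in mock cells (x axis, with the number of loci). The knockdown-only bars reach 1.24 at 5 to 20 FPKM and 0.860 over 100 FPKM, and the mock-only bars climb to 8.95.

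The rates also differed with locus length in expressed loci. Knockdown-only peaks numbered 1.26 per 100 kb in expressed loci under 10 kb, 1.18 at 10 to 30 kb, 1.28 at 30 to 100 kb, 0.949 at 100 to 300 kb and 0.486 over 300 kb. Mock-only peaks numbered 13.9, 6.17, 2.55, 1.16 and 0.460 in the same classes. The knockdown-only rate thus varied little up to 100 kb, where the mock-only rate was lower in each longer class.

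Genes that held knockdown-only peaks had higher RNA ratios, EP400 siRNA over mock siRNA, than other genes. The median log2 ratio was 0.32 for genes with a knockdown-only peak in the locus and a mean of 1 FPKM or more, which 2394 of 3520 such genes reached, against -0.20 for all 11666 genes at that level and -0.41 for the 9272 with no knockdown-only peak. Of the 2394, 251 (10.5%) were 2-fold or more higher after EP400 siRNA, where 6.11% of all genes measured were, and 146 (6.10%) were 2-fold or more lower, where 22.9% of all were. The summed confidence limits did not overlap for 2 of the 251 and 0 of the 146, compared with 10 and 15 among all genes measured. Limits summed over transcripts can be too wide for a gene. Rescaling to equal sums moved the median of all genes up by 0.64. It put 1119 (46.7%) of the 2394 genes higher and 34 (1.42%) lower, beside 28.1% and 5.59% of all, with a median of 0.96 against 0.44. On median centring 450 (18.8%) were higher and 91 (3.80%) lower, beside 10.8% and 15.7% of all.

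The median differed with the number of knockdown-only peaks and with the other H3.3 peaks of the locus. It was 0.38 for 762 genes with 3 or more knockdown-only peaks and 0.40 for 156 genes with 10 or more, of which 19 (12.2%) were 2-fold higher and 2 (1.28%) lower. Over all genes measured 6.11% were higher and 22.9% lower. Genes with knockdown-only and no mock-only peak (1113) had a median of 0.45, with 137 (12.3%) higher and 23 (2.07%) lower. Genes with both (1281) had 0.16, with 114 (8.90%) higher and 123 (9.60%) lower. Genes with mock-only and no knockdown-only peak (4437) had -0.83, with 141 (3.18%) higher and 1753 (39.5%) lower. Those with neither (4835) had 0.00, with 321 (6.64%) higher and 778 (16.1%) lower. Genes with a shared peak (864), which may hold the other classes too, had -0.31, with 46 (5.32%) higher and 211 (24.4%) lower.

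**Figure D5:**
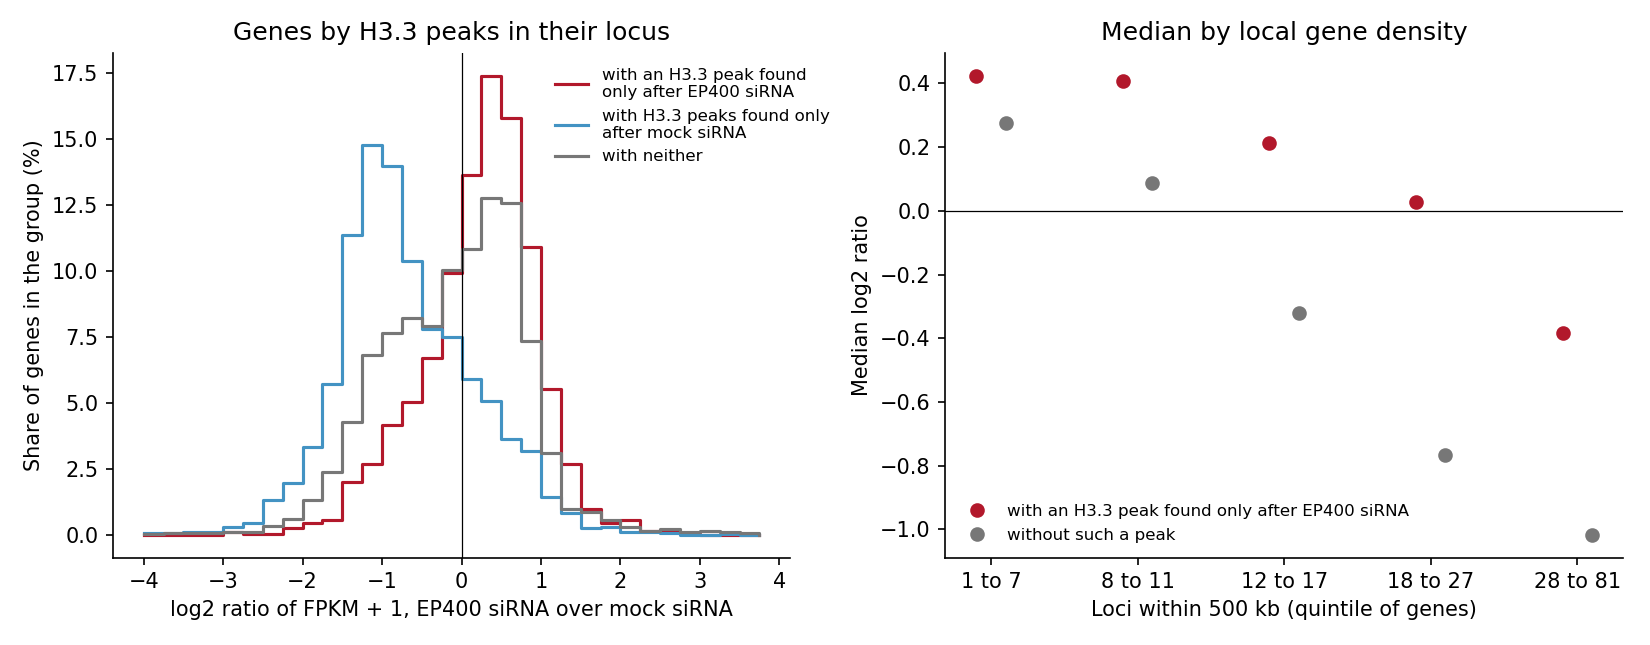
Left, share of genes (y axis, %) by log2 ratio of FPKM + 1, EP400 siRNA over mock siRNA (x axis, bins of 0.25 from -4 to 4), for genes with a knockdown-only H3.3 peak in the locus, with mock-only peaks and no knockdown-only peak, and with neither. Right, median log2 ratio (y axis) by quintile of loci within 500 kb (x axis) for genes with and without a knockdown-only peak, where the medians are 0.42 and 0.28 in the lowest quintile and -0.38 and -1.02 in the highest.

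Local gene density, locus length and RNA level moved with both the peaks and the RNA. Within each of 5 quintiles of density the median was higher for genes with a knockdown-only peak, by 0.15 to 0.79. In the lowest quintile (1 to 7 loci within 500 kb) it was 0.42 for 820 genes with a knockdown-only peak and 0.28 for 1745 without, and in the highest (28 to 81 loci) -0.38 for 109 and -1.02 for 2004. It was also higher in each of 5 classes of locus length, by 0.15 to 0.91, and in each of 4 classes of mean FPKM, by 0.33 to 0.90. On all 23 chromosomes the median was higher with knockdown-only peaks. The smallest difference was on chromosome 19 (0.02, with -1.03 for 19 genes and -1.05 for 812) and the largest on chromosome 11 (0.94, with 0.29 for 118 genes and -0.65 for 577). With ratios centred within density quintiles the median was 0.23 for genes with knockdown-only peaks. At that setting 275 (11.5%) were 2-fold higher and 130 (5.43%) lower, beside 8.91% and 10.8% of all. Which of these properties goes with RNA by itself was not tested.

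The 6 highest and 6 lowest RNA ratios were taken among genes with a knockdown-only peak in the locus and a mean of 5 FPKM or more. CXCL8, which encodes a neutrophil chemokine, had 2 knockdown-only peaks in a locus of 3.21 kb (chromosome 4, 74606223 to 74609433) and no other H3.3 peak of that width. Its RNA stood at 23.7 FPKM after EP400 siRNA (limits 2.89 to 44.5) and 0.435 FPKM after mock siRNA (0.0316 to 0.839), a log2 ratio of 4.10 with limits apart. The integrin gene ITGA2 stood at 10.1 and 0.597 FPKM (2.80), the phosphate transporter gene SLC20A1 at 132 and 21.8 FPKM (2.55), TAF13, a subunit of TFIID, at 10.7 and 1.33 FPKM (2.33), and HMGA2, which encodes a DNA-bending chromatin protein, at 44.9 and 8.27 FPKM (2.31). ITGA2, SLC20A1 and TAF13 held 1 knockdown-only peak each, and HMGA2 held 4. PDE4DIP had a log2 ratio of 2.64 in a locus of 34 genes that held 25 knockdown-only peaks. Limits overlapped for all but CXCL8, and all 6 ratios were positive under each scaling tried.

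The 6 genes with the lowest ratios, chosen among genes with a knockdown-only peak, held 1 or 2 of these peaks each. The membrane protease gene MMP24 stood at 2.70 FPKM after EP400 siRNA and 27.8 FPKM after mock siRNA (-2.96). C1QL1, which encodes a secreted C1q-like protein, stood at 48.4 and 287 FPKM (-2.54), and DYNC2I2, which encodes a dynein chain of cilia, at 69.6 and 364 FPKM (-2.37). EDIL3, which encodes a matrix protein that binds integrins, stood at 1.30 and 9.54 FPKM (-2.20), TCF7L1, a transcription factor of the Wnt pathway, at 2.12 and 13.2 FPKM (-2.19), and AJUBA, a LIM-domain adaptor, at 17.9 and 78.6 FPKM (-2.07). Limits overlapped for all 6, and their ratios were negative under each scaling tried. EDIL3 had no mock-only peak, and the other 5 had 2 to 14.

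Gene lists were read against the 14.6% of all 24172 genes that held a knockdown-only peak. Among genes measured in RNA 2394 of 11666 held such a peak. Of 13 genes of H3.3 and its chaperones 5 held one, led by NASP, which encodes a chaperone of H3 and H4, with 5 peaks (53.4 FPKM after EP400 siRNA and 51.8 FPKM after mock siRNA). Of 18 genes of the TIP60-EP400 complex 6 held one, led by EPC1 with 6 (12.4 and 16.8 FPKM) and TRRAP with 4 (6.60 and 6.71 FPKM). Knockdown-only peaks numbered 0.989 per 100 kb over the H3.3 list and 1.37 over the complex list. Loci with a summed FPKM of 1 or more held 0.943, and those of 10 to 30 kb and 30 to 100 kb held 1.18 and 1.28. By RNA, 0 of 12 measured H3.3 genes were 2-fold higher and 3 lower, and 0 of 16 complex genes higher and 4 lower (2 and 1, and 6 and 1, on rescaling to equal sums). That is 25% lower in both lists, near the 22.9% of all genes measured.

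Of 31 neuronal adhesion genes, with a median locus of 1338 kb, 6 (19.4%) held a knockdown-only peak. Over the list they numbered 0.0402 per 100 kb, near the 0.0541 of all loci over 300 kb with a summed FPKM under 1, and 5 of the 31 genes had a mean of 1 FPKM or more. LSAMP led with 9 peaks at RNA under 1 FPKM in both libraries, followed by NTM with 5 knockdown-only and 25 mock-only peaks (8.65 and 12.5 FPKM). Of 14 protocadherin genes only PCDH7, a cell adhesion gene, held any. It had 11 knockdown-only and 2 mock-only peaks on chromosome 4 (30722030 to 31148423), and its RNA stood at 14.5 FPKM after EP400 siRNA (limits 0.233 to 31.8) and 3.05 FPKM after mock siRNA (0.171 to 6.50), a log2 ratio of 1.94 with overlapping limits.

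Of 22 extracellular matrix genes 4 held a knockdown-only peak, led by COL4A2 with 2 knockdown-only and 16 mock-only peaks (125 and 228 FPKM). By RNA, 4 of 19 measured genes (21.1%) were 2-fold higher and 6 (31.6%) lower (5 and 4 on rescaling). Over all genes measured 6.11% were higher and 22.9% lower, and 28.1% and 5.59% on rescaling. Among interferon-stimulated genes 14 of 19 measured (73.7%) were 2-fold higher and 0 lower (17 and 0 on rescaling), with a median log2 ratio of 1.42. Of 24 such genes 1 held a knockdown-only peak, where 14.6% of all genes did. That gene was RIGI, a sensor of viral RNA, with 1 peak and RNA at 5.003 and 0.357 FPKM (2.15). Over the interferon list knockdown-only peaks numbered 0.190 per 100 kb, below the 0.943 of loci with a summed FPKM of 1 or more. Loci at 0.1 to 1 FPKM in mock cells held 0.196. Of 27 KRAB zinc finger genes 0 held a knockdown-only peak, and 2 had a mean of 1 FPKM or more. Their median locus was 30.7 kb, and loci of 30 to 100 kb with a summed FPKM under 1 held 0.148 knockdown-only peaks per 100 kb.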

How the data were processed

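ChIP-seq and RNA-seq of U2OS cells were analysed as deposited. The build named is hg19, and the tools named are Cuffdiff 2.0.2, TopHat2 2.0.8 and Bowtie 0.12.9, per the submitters' processing notes. How peaks were called, and against which control, is not given in the sources used here. Of the 4 inputs of the study none is labelled as mock. Their labels name EP400 siRNA or the EP400 immunoprecipitations. Each peak list gives chromosome, start and end with no score, per the deposited files, and the labels 23 and 24 in them were read as X and Y, where all their positions fit. Widths are end minus start plus 1, in steps of 100 bp (50 bp for EP400). The RNA values are FPKM deposited by the authors with confidence limits, per the file headers, so no count model was fitted and the depth is unknown.

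FPKM of transcripts of 200 nt or more, and their confidence limits, were summed per gene (122 genes with a failed estimate left out). Genes with a mean of 1 FPKM or more were kept. The summed limits are not limits that the authors gave for a gene. Symbols were matched by RefSeq identifier for 47555 of 48669 entries (97.7%). The log2 ratio used a pseudocount of 1, which understates the change of low genes, and 2-fold was the limit for higher and lower genes. Locus positions are hg19, counted from 1. Of 19965 loci with a kept gene, 2867 (14.4%) held more than 1 gene, and overlapping or antisense genes cannot be told apart. Strand and promoters came from a GRCh38.p14 table, matched by symbol with the most upstream start.

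Overlap was 1 bp or more. Python 3.11.15, pandas 2.3.3, numpy 2.4.6, scipy 1.17.1 and matplotlib 3.10.9 were used, and the overlap and distance code was tested on simulated data. The knockdown-only peaks and the gene lists were chosen with earlier results of these data known. Named genes were EP400, the 6 loci with the most knockdown-only peaks, the 6 widest of these peaks and the 6 with the most other lists, the 6 highest and 6 lowest log2 ratios at a mean of 5 FPKM or more in loci with such a peak, and up to 3 genes of each list with the most of them. Features outside this rule (the genes of covered starts, further runs) were named after their values were seen. Alternatives for width, overlap, gene end, window, scaling and filters are in the closing section. Leukocyte markers are not reported here.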

Additional observations from a re-analysis of the deposited data

How the results depend on the processing

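No difference or median log2 ratio of the knockdown-only peaks and their genes as a set changed sign under any alternative. Counts and shares cannot change sign. Other medians and single genes did turn on rescaling to equal sums. The median of all genes measured went from -0.20 to 0.44, that of the TIP60-EP400 genes from -0.17 to 0.54, and ERBIN from -0.48 to 0.22. Number, gene-end share and share with any other list were 9093, 13.98% and 17.9% as reported. A minimum width of 200 bp gave 16856 knockdown-only peaks and 15.6% with another list, and one of 500 bp gave 3105, 15.9% and 21.7%. Counting a mock peak within 1 kb as found gave 10.8% and 15.03%, and needing a mock overlap over 50% of the peak gave 15.2% and 19.7%. Gene ends of 1 kb and 5 kb gave 8.04% and 24.6%, and other lists within 1 kb gave 39.5%. The gene-end difference to shared peaks (-23.7 points) was -19.1 with mock peaks within 1 kb, and -19.0 and -27.5 with ends of 1 kb and 5 kb. The any-list difference (-36.0 points) was -23.7 with mock peaks within 1 kb, -40.2 with 50% overlap and -40.8 with other lists within 1 kb. The median density was 4 loci at 250 kb and 15 at 1 Mb. Its difference to shared peaks (-6) was -3 with mock peaks within 1 kb, -3 and -11 with windows of 250 kb and 1 Mb, and -3 when weighted to the chromosomes of the knockdown-only peaks. A mock list shortened to the length of the EP400 siRNA list gave 9327 knockdown-only peaks, and 8333 remained without chromosome 2.

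For genes with knockdown-only peaks the median log2 ratio (0.32) and its difference to all genes (0.52) were 0.40 and 0.64 at a pseudocount of 0.1, 0.15 and 0.15 with no filter, and 0.19 and 0.77 at a mean of 5 FPKM. The median was 0.52 on median centring, 0.96 on rescaling to equal sums, 0.23 (also its difference) on centring by density, and 0.38 with a difference of 0.58 for 3 or more peaks. It was 0.36 in loci of 1 gene, and the difference was 0.32 on centring by locus length; both settings were chosen after seeing the data. Genes 2-fold higher and lower (251 and 146) numbered 450 and 91 on median centring and 1119 and 34 on rescaling, with shares given above. With a peak at a gene end they numbered 123 and 91 of 1099 genes (11.2% and 8.28%). With 3 or more peaks they numbered 85 and 29 of 762 (11.2% and 3.81%). All genes measured gave 6.11% and 22.9%. In loci of 1 gene they numbered 162 and 73 of 1540 (10.5% and 4.74%), beside 6.29% and 22.6% of all genes in such loci. Higher genes numbered 446 at a pseudocount of 0.1 (18.6%, beside 11.3% of all) and 159 at a mean of 5 FPKM (11.9%, beside 5.98% of all). The 3 settings that count fewer genes (a peak at a gene end, 3 or more peaks, loci of 1 gene) and the filter of 5 FPKM gave smaller counts from fewer genes, while centring and rescaling kept the same 2394 genes. The cause of the other shifts was not tested. Of values in the comparisons 51 stayed close and 50 moved, and of shares for single lists and differences to mock-only peaks 45 and 46.

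No paired analysis was possible because each condition had 1 library, and the EP400 replicates came as 1 list. The lists hold no heights, so a site just under the caller's threshold in mock cells counts as absent there.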
